A study of Mus musculus with 4 samples.

Results

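Rab GTPases are small GTP-binding proteins that mark the membranes of the secretory and endocytic pathways. Their genes were examined here in splenic Esam dendritic cells (DC) of mice that lack Runx3, a Runt domain transcription factor, in DC. The genes were taken by name: every array probe set annotated with exactly 1 gene symbol that begins with Rab and a digit, with a log2 value of at least 6.5 on 1 or more of the 4 arrays, and the brightest probe set where a gene had several. This gave 50 genes of the 9894 genes tested. The name does not match the protein family in every case: 40 of the 50 encode Rab GTPases, and the other 10 (Rab3gap1, Rab3gap2, Rab3ip, Rab3il1, Rab11fip1, Rab11fip2, Rab11fip3, Rab11fip4, Rab5if and Rab10os) are named after a Rab but encode none. The cKO mice carried floxed Runx3 and a CD11c-Cre transgene (labelled DCRunx3 -/-, n = 2 mice), and their wt littermates were labelled DCRunx3 +/+ (n = 2 mice). All 4 mice were 6 weeks old, the labels name no treatment, and each of the 2 litters gave 1 cKO and 1 wt mouse. Cre driven by CD11c is active in every cell that uses this promoter, other DC subsets and some macrophages included. The cells were sorted by flow cytometry as positive for CD11c and MHC class II and then on Esam, CD4 and CD8.

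A Rab protein works as a switch. Exchange factors load it with GTP, and in this form it recruits effectors such as tethers and motor proteins to its membrane. GTPase-activating proteins return it to the GDP form, and GDP dissociation inhibitors carry it back through the cytosol. Each Rab has its own compartments: Rab5 proteins act on early endosomes, Rab7 on late endosomes and lysosomes, Rab11 proteins on recycling endosomes and Rab1 proteins between endoplasmic reticulum and Golgi. In DC these routes carry antigen to the compartments where MHC molecules are loaded and bring the loaded molecules to the surface.

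The array carried probe sets for 70 Rab-numbered genes. The 20 that are not among the 50, of which 19 encode GTPases, stayed under 6.5 on all 4 arrays, with values between 4.34 and 6.23. They were Rab3a, Rab3b, Rab3c, Rab4a, Rab6b, Rab9b, Rab11fip5, Rab13, Rab15, Rab17, Rab25, Rab26, Rab27b, Rab33a, Rab34, Rab36, Rab39b, Rab40b, Rab42 and Rab44. Just outside the limit Rab26 lay between 5.77 and 6.23, Rab11fip5 between 5.78 and 6.04 and Rab3a between 5.80 and 5.92. Just inside it were Rab3d between 6.65 and 6.78, Rab11fip3 between 6.41 and 7.01 and Rab20 between 6.75 and 7.17.

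The 4 arrays had medians between 6.58 and 6.62 over all probe sets. They correlated with each other at r between 0.980 and 0.989 over the 18889 tested probe sets. The Runx3 probe set lay at 11.47 and 11.45 in cKO DC and at 11.37 and 11.51 in wt DC, so it gave no check of the genotype labels. The labels call all mice male, whereas Xist and the Y-linked genes split the arrays by litter, with 1 array of either kind in each genotype. The 8 conventional DC markers and the 9 markers of CD11b and Esam DC were all over the limit. The log2 sum of the conventional DC markers was 15.66 and 15.68 in cKO against 15.65 and 15.66 in wt (4 of 8 genes higher by sign). For CD11b and Esam DC it was 14.72 and 14.74 in cKO against 14.59 and 14.56 in wt (6 of 9). Summed markers of cDC1, macrophages, monocytes and plasmacytoid DC were also higher on both cKO arrays. On the log2 scale the sum of the cDC1 markers was 14.27 and 14.36 in cKO against 13.42 and 13.23 in wt (9 of 10 genes higher by sign). The macrophage sum was 14.27 and 14.41 in cKO against 13.85 and 14.09 in wt (14 of 14, Marco under the limit). The monocyte sum was 14.09 and 14.10 in cKO against 13.50 and 13.44 in wt (8 of 8), and the plasmacytoid DC sum was 12.13 and 12.14 in cKO against 11.68 and 11.46 in wt (7 of 8, Pacsin1 under the limit). B cell markers summed to 12.59 and 12.43 in cKO and to 12.64 and 12.25 in wt, with Ebf1 and Pax5 under the limit. No T cell, NK cell, neutrophil, erythroid or platelet marker with a probe set passed it. Not every listed marker had a probe set. Those that had were 14 of 15 macrophage, 8 of 10 monocyte, 8 of 10 plasmacytoid DC and 6 of 7 B cell markers. For T cells they were 5 of 8, for erythroid cells 2 of 6 and for platelets 4 of 5. The part of these other cells in the Rab results was not tested, and in sorted bulk RNA more cells of a type and more RNA per cell cannot be told apart.

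The Rab genes as a set moved little with the loss of Runx3. The differences, given throughout as cKO minus wt on the log2 scale, split into 26 genes higher and 24 lower by sign. Of all genes tested 4200 were higher and 5694 lower by sign. Among the 50, 4 with differences close to 0 turned under another scaling. The Rab median was 0.00 (all genes tested, -0.03). It was -0.01 with each array centred on its median and 0.03 after renewed quantile normalization. The median size of a difference was 0.0846, against 0.101 over all genes, and 29 of the 50 lay within 0.10 of 0, as did 49.7% of all genes. At the thresholds of the study's methods, a fold of at least 1.5 and an unadjusted p of at most 0.05 in a one-way test of the groups, Rab7b rose and Rab37 fell in cKO DC and the other 48 did not pass. Of all genes 1.85% passed, 1.39% higher and 0.455% lower. With any 1 array left out Rab37 no longer passed (difference -0.74 to -0.55), and Rab7b passed without wt 1 (1.48) or wt 2 (1.34) but not without cKO 1 (1.44) or cKO 2 (1.39), where 1 residual degree of freedom remained in place of 2. With limma and Benjamini-Hochberg adjustment over the 18889 tested probe sets, 0 passed 0.05, none of the Rab genes included, whereas 1771 (9.38%) had an unadjusted p under 0.05. The one-way test with the same adjustment also gave 0, and 1556 at an unadjusted p under 0.05. With limma fitted anew on 1 probe set per gene, 42 of the 9894 genes passed after adjustment (0.424%, and 0.344% with higher values in cKO). Rab7b was among them and no other Rab gene. This refit changes the standard errors and p values as well as the number of tests. In the fit over all tested probe sets, 7 of the 50 had an unadjusted limma p under 0.05. They were Rab7b, Rab3il1, Rab20 and Rab31 with higher values and Rab37, Rab24 and Rab23 with lower values in cKO DC. The background for that count was 10.3% of all genes, 5.37% higher and 4.92% lower. With the litter as a block Rab32 joined them with higher values, making 8 of the 50 (all genes, 11.2%).

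**Figure D1:**
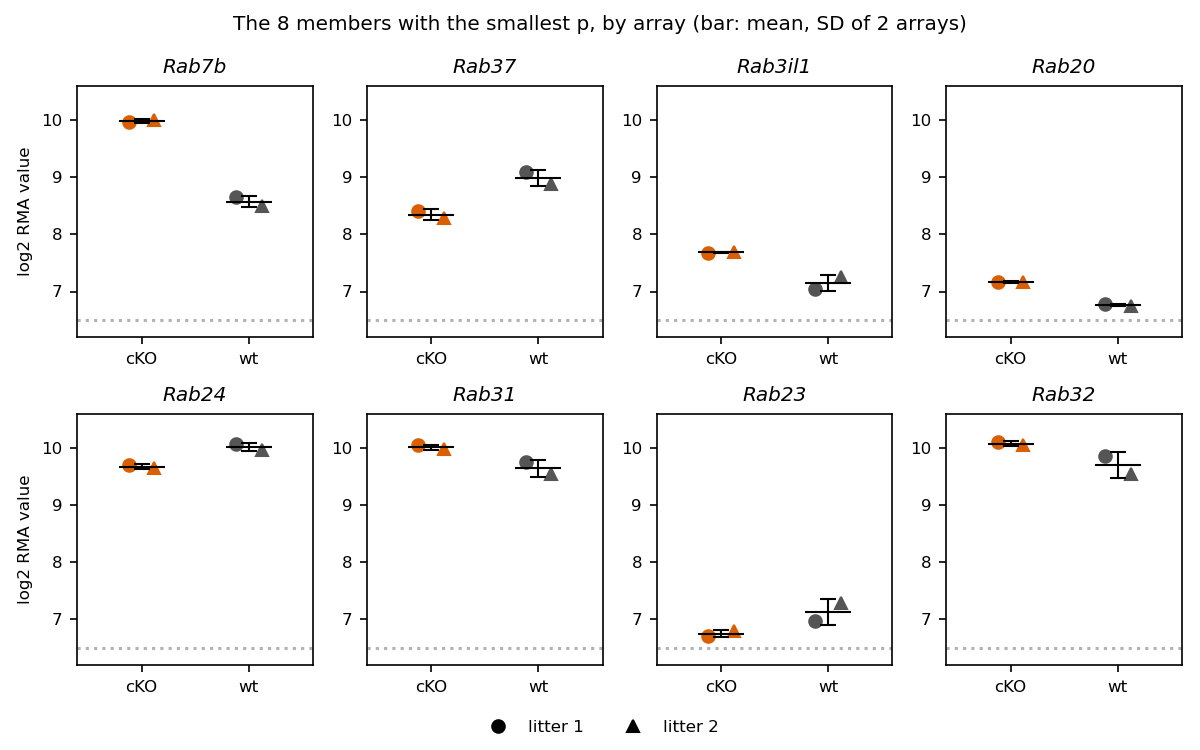
Log2 RMA values (y axis) on each array of the 8 Rab-numbered genes with the smallest limma p, cKO left of wt, with litter 1 as circles, litter 2 as triangles, and the mean and SD of 2 arrays as bars. The dotted line is the limit of 6.5. The cKO and wt values do not overlap in any of the 8 panels, and the gap is widest for Rab7b, at 9.97 and 10.01 in cKO against 8.65 and 8.51 in wt.

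The plot of values by array shows the same separation in all of its 8 genes, which were picked by their p. Over the full set, the cKO values of 20 of the 50 Rab genes lay all above or all below the wt values, 12 above and 8 below. The background was 45.4% of all genes (17.1% higher, 28.3% lower), so the Rab genes were not separated more often than genes at large.

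To show the sequence around some of the genes with an unadjusted p under 0.05, Rab31, Rab23 and Rab20 are given with the 250 bases upstream of a RefSeq start, on their own strand. Runx proteins bind TGTGGT and TGCGGT, and CACGTG is an E-box core bound by factors such as Tfeb, which drives lysosomal genes. The letters searched were TGTGGT and TGCGGT on both strands, which read ACCACA and ACCGCA on the reverse one, and separately CACGTG, which reads the same on both strands and can share end bases with a Runx match. Capitals mark each match. Each window shown holds a match, which was not so for all of these genes. Rab24, whose window held none, and Rab3il1 also had windows but are not shown. The windows, in GRCm38.p6, are chr17:65772753-65773002 on the minus strand for Rab31, chr1:33720169-33720418 on the plus strand for Rab23 (1 of its 2 windows, chosen for its Runx match) and chr8:11478641-11478890 on the minus strand for Rab20.
Rab31: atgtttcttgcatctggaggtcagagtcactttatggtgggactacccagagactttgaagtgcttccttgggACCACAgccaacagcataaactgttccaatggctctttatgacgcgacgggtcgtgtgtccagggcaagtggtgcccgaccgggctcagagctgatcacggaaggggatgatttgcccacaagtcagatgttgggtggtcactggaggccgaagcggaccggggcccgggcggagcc
Rab23: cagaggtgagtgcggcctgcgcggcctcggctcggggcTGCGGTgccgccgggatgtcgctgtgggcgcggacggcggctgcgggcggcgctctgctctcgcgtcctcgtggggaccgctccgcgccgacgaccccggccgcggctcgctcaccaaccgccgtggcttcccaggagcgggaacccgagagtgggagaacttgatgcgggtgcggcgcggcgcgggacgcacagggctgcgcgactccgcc
Rab20: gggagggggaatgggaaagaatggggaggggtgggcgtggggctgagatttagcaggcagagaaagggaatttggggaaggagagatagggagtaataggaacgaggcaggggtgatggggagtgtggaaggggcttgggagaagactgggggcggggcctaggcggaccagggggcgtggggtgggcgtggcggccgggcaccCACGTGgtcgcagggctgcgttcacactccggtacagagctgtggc

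The Runx letters stood upstream of Rab31 and, in 1 of its 5 windows, of Rab3il1, which had higher values in cKO DC, and of Rab23, which had lower values. The window of Rab24, also with lower values, held neither motif. Over the 42 Rab-numbered genes with a window, 11 held a Runx match (26.2%), against 20.9% of the 27025 genes with a window. CACGTG was found for 8 of the 42 (19.0%), against 6.86% of the same 27025 genes. For both motifs the shares compare unlike sets. The 42 genes had passed the log2 limit, whereas the 27025 were not limited to measured genes. The sets were also not matched for base composition, so the gaps do not show an enrichment particular to Rab genes. A match of letters is not a binding site, and no window was given for Rab7b or Rab37.

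Among the Rabs of late endosomes, lysosomes and phagosomes, Rab7b rose and the rest moved less. All 5 measured genes of the 7 listed had their cKO arrays apart from their wt arrays, 4 higher and 1 lower (all genes, 45.4% apart, 17.1% higher and 28.3% lower). For Rab7 this held only within rounding, with cKO 2 and wt 1 both at 10.996. An unadjusted limma p under 0.05 was reached by 3 of the 5 (all genes, 10.3%). Their median difference over the 5 genes was 0.16. Rab7b, known from mouse macrophages for bringing Toll-like receptors to lysosomes for degradation, was 2.66-fold higher (probe set 10349661). Its log2 value was 9.97 and 10.01 in cKO DC, against 8.65 and 8.51 in wt DC. Both cKO arrays lay far above both wt arrays, and the SD was 0.03 in cKO and 0.10 in wt (n = 2 each). The difference was 1.41 ± 0.10 (SE; 95% interval 1.15 to 1.67) in limma, with adjusted p = 0.158 over probe sets. In the limma refit on 1 probe set per gene the SE was 0.087 and the adjusted p 0.0345. The difference was 1.32 within litter 1 and 1.51 within litter 2.

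Rab7, the paralog of Rab7b that governs the fusion of late endosomes with lysosomes, lay at 11.01 and 11.00 in cKO DC and at 11.00 and 10.69 in wt DC. The cKO arrays and wt 1 were nearly level, and wt 2 was lower. The difference was 0.16 with a 95% interval of -0.20 to 0.52, at 0.01 within litter 1 and 0.31 within litter 2. The interval lies below that of Rab7b.

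Rab20, known from macrophages for a part in phagosome maturation, was at 7.16 and 7.17 in cKO DC and at 6.78 and 6.75 in wt DC. The difference of 0.40 ± 0.08 (SE) was wider than the gap within either pair of arrays, and its limma adjusted p was 0.318. Rab24, linked to autophagy, ran the other way, at 9.70 and 9.64 in cKO DC against 10.06 and 9.97 in wt DC (difference -0.35 ± 0.09, SE; limma, adjusted p = 0.416). Rab9, which serves the return of mannose 6-phosphate receptors to the Golgi, was at 9.40 and 9.43 in cKO DC and at 9.33 and 9.23 in wt DC. Its difference was 0.13 with a 95% interval of -0.11 to 0.37. In this group the cDC1, macrophage and monocyte marker sums, which were also higher on both cKO arrays, moved with Rab7b. So did the plasmacytoid DC sum and the sum for CD11b and Esam DC. The part of any of these cells in the Rab7b difference was not tested.

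**Figure D2:**
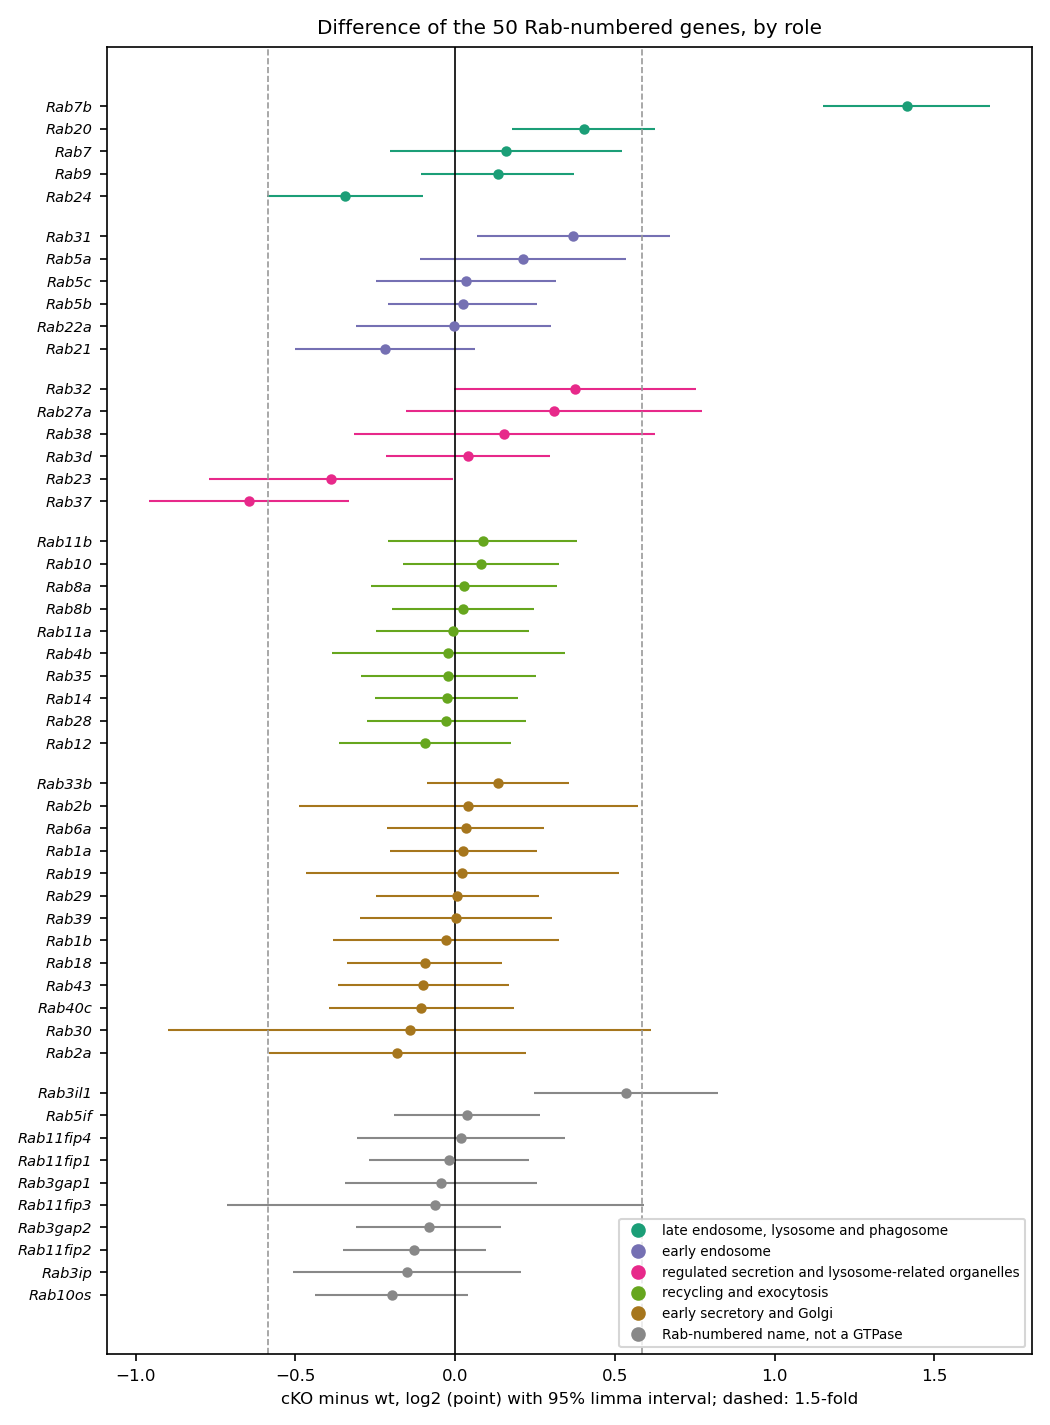
Difference of each of the 50 Rab-numbered genes (cKO minus wt, log2, x axis), grouped and coloured by role, as points with the 95% limma interval and with dashed lines at 1.5-fold. Rab7b (1.41) and Rab37 (-0.64) lie beyond the dashed lines, and the 10 recycling and exocytosis genes all lie within 0.10 of 0.

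The early endosome Rabs varied by gene. The 6 measured genes of the 7 listed ranged from -0.22 to 0.37, and 3 of them were apart between genotypes, 2 higher and 1 lower (45.4% of all genes). Rab31, which acts between the trans-Golgi network and endosomes, was at 10.04 and 9.98 in cKO DC against 9.75 and 9.54 in wt DC (difference 0.37 ± 0.11, SE; limma, adjusted p = 0.463). Rab21, known for the traffic of integrins through early endosomes, was at 11.70 and 11.73 in cKO DC and at 11.84 and 12.02 in wt DC, a difference of -0.22 (95% interval -0.50 to 0.06). Rab31 and Rab21 thus lay on opposite sides of 0, and neither passed after adjustment.

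The 3 Rab5 isoforms drive the fusion of early endosomes. Rab5a was at 9.74 and 9.80 in cKO DC and at 9.68 and 9.44 in wt DC (difference 0.21, 95% interval -0.11 to 0.53). Rab5b was at 10.79 and 10.87 in cKO DC and at 10.82 and 10.80 in wt DC, and Rab5c was at 11.43 on both cKO arrays and at 11.49 and 11.30 in wt DC. Only Rab5a had its groups apart, and most of that difference lay in litter 2 (0.37, against 0.06 in litter 1). Rab22a, which sorts cargo between early and recycling endosomes, was at 8.83 and 8.92 in cKO DC and at 8.98 and 8.77 in wt DC, with a 95% interval of -0.31 to 0.30 for the difference.

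The Rabs of regulated secretion and lysosome-related organelles held the Rab gene that fell. Rab37, known from mast cells as a Rab of secretory granules, was 1.56-fold lower (probe set 10382449). Its log2 value was 8.41 and 8.28 in cKO DC, against 9.09 and 8.89 in wt DC, with no overlap between the groups and an SD of 0.09 in cKO and 0.14 in wt (n = 2 each). The difference was -0.64 ± 0.12 (SE; 95% interval -0.96 to -0.33; limma, adjusted p = 0.278 over probe sets and 0.0986 in the refit on 1 probe set per gene). It was -0.68 within litter 1 and -0.61 within litter 2. Rab37 overlaps Cd300lf in RefSeq, and the probe set of Cd300lf was at 10.59 and 10.46 in cKO DC and at 10.78 and 10.75 in wt DC.

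Rab32 and Rab38 are paralogs that bring enzymes to melanosomes and related organelles. Rab32 was at 10.10 and 10.05 in cKO DC and at 9.86 and 9.54 in wt DC, a difference of 0.38 ± 0.14 (SE; limma, adjusted p = 0.535, and 0.433 with the litter block), at 0.24 within litter 1 and 0.51 within litter 2. Rab38 was at 7.97 and 7.72 in cKO DC and at 7.87 and 7.51 in wt DC, and here the groups overlapped (difference 0.15, 95% interval -0.32 to 0.63). Both had their lowest value on the wt 2 array, and so had Rab27a, the Rab of melanosome and lytic granule transport. Rab27a was at 9.26 and 9.09 in cKO DC and at 9.07 and 8.67 in wt DC, with its higher wt value just under the lower cKO value (difference 0.31, 95% interval -0.15 to 0.77).

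Rab3d, a Rab of secretory granules in exocrine cells, stayed near the limit, at 6.78 and 6.66 in cKO DC and at 6.71 and 6.65 in wt DC. Rab23, listed with this group although it is best known as a brake on hedgehog signalling, was at 6.70 and 6.79 in cKO DC against 6.97 and 7.29 in wt DC (difference -0.39 ± 0.14, SE; limma, adjusted p = 0.525). Of the 12 genes listed in this group 6 were measured, and 4 of those had their groups apart, 2 higher and 2 lower, where 45.4% of all genes were apart.

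The recycling and exocytosis Rabs were the level group. All 10 measured genes of the 14 listed lay between -0.09 and 0.09, and their 95% intervals lay between -0.39 and 0.38. They were Rab4b, Rab8a, Rab8b, Rab10, Rab11a, Rab11b, Rab12, Rab14, Rab28 and Rab35. Rab11a, the main Rab of recycling endosomes, was at 10.37 and 10.47 in cKO DC and at 10.44 and 10.41 in wt DC. Its paralog Rab11b was at 11.87 and 11.83 in cKO DC and at 11.87 and 11.66 in wt DC, and a second, dimmer Rab11b probe set gave a difference of -0.15. Rab8a, which directs vesicles to the plasma membrane and the cilium, was at 12.43 and 12.39 in cKO DC and at 12.48 and 12.28 in wt DC. In these 3 genes the groups overlapped, and so did those of Rab14, which acts between Golgi and endosomes, at 11.56 and 11.59 in cKO DC and at 11.59 and 11.62 in wt DC.

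Only Rab10 and Rab8b of these 10 genes had their groups apart, where 45.4% of all genes were apart. Rab10, known for bringing GLUT4 vesicles to the surface of fat cells, was at 12.16 and 12.21 in cKO DC and at 12.16 and 12.05 in wt DC, a difference of 0.08. Rab8b was at 11.98 and 11.95 in cKO DC and at 11.94 on both wt arrays, a difference of 0.02. The separation of these 2 genes was therefore small in size.

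The early secretory and Golgi Rabs were also near 0. Their 13 measured genes of the 19 listed ranged from -0.18 to 0.14 with a median of 0.00, none had an unadjusted limma p under 0.05, and 2 had their groups apart (45.4% of all genes). Rab1a, which serves transport from endoplasmic reticulum to Golgi, was at 11.22 and 11.27 in cKO DC and at 11.24 and 11.19 in wt DC. Rab2a, a Rab of the same step, was at 12.31 and 12.39 in cKO DC and at 12.35 and 12.70 in wt DC, where wt 2 alone was high (difference -0.18, 95% interval -0.58 to 0.22). A second tested Rab2a probe set did not share this pattern, with a difference of 0.04 and wt 2 the lowest array at 10.23. Rab6a, which governs retrograde transport at the Golgi, was at 9.90 and 10.01 in cKO DC and at 9.93 and 9.92 in wt DC.

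The 2 genes apart were Rab33b and Rab18. Rab33b, a Golgi Rab with a part in autophagosome formation, was at 7.78 and 7.81 in cKO DC and at 7.65 and 7.66 in wt DC (difference 0.14, 95% interval -0.09 to 0.36). Rab18, known for lipid droplets and the endoplasmic reticulum, was at 8.59 and 8.65 in cKO DC and at 8.67 and 8.76 in wt DC (difference -0.10). Rab43, which in mouse CD8+ DC is known for a part in cross-presentation, was at 10.97 and 11.12 in cKO DC and at 11.11 and 11.18 in wt DC, so its groups overlapped. The other 7 genes, Rab1b, Rab2b, Rab19, Rab29, Rab30, Rab39 and Rab40c, had overlapping groups and differences between -0.14 and 0.04.

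Of the 10 genes that carry a Rab number without encoding a GTPase, Rab3il1 showed the widest difference. Rab3il1, an exchange factor that acts on Rab3 and Rab8 proteins, was at 7.68 and 7.69 in cKO DC against 7.05 and 7.25 in wt DC, a difference of 0.53 ± 0.11 (SE; limma, adjusted p = 0.308). At 1.45-fold it stayed just under the fold threshold. Its relative Rab3ip, an exchange factor for Rab8, had the opposite sign and overlapping groups, at 8.49 and 8.64 in cKO DC and at 8.59 and 8.84 in wt DC.

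The Rab3 GTPase-activating complex is made of Rab3gap1 and Rab3gap2, which differed by -0.04 and -0.08. The 4 measured Rab11 family interacting proteins, effectors that link Rab11 to motors, lay between -0.13 and 0.02. Among them Rab11fip2 had its groups apart, at 9.30 and 9.27 in cKO DC and at 9.42 and 9.40 in wt DC (95% interval -0.35 to 0.10). Rab10os, a transcript that overlaps Rab10 in RefSeq, was at 7.77 and 7.87 in cKO DC and at 8.003 and 8.03 in wt DC (difference -0.20, 95% interval -0.44 to 0.04). The difference of Rab10 itself had the other sign. Rab5if, an endoplasmic reticulum membrane protein, differed by 0.04.

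The litter pairs showed how far the differences held within each litter. In 31 of the 50 Rab genes the difference had the same sign in both litters, as in 6239 of the 9894 genes. The wt 2 array was the lowest or highest of the 4 in 36 of the 50 Rab genes (72.0%, against 58.1% of all genes). The median gap between the 2 arrays of a genotype was 0.0596 in cKO and 0.161 in wt for the Rab genes, against 0.0805 and 0.132 over all genes.

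**Figure D3:**
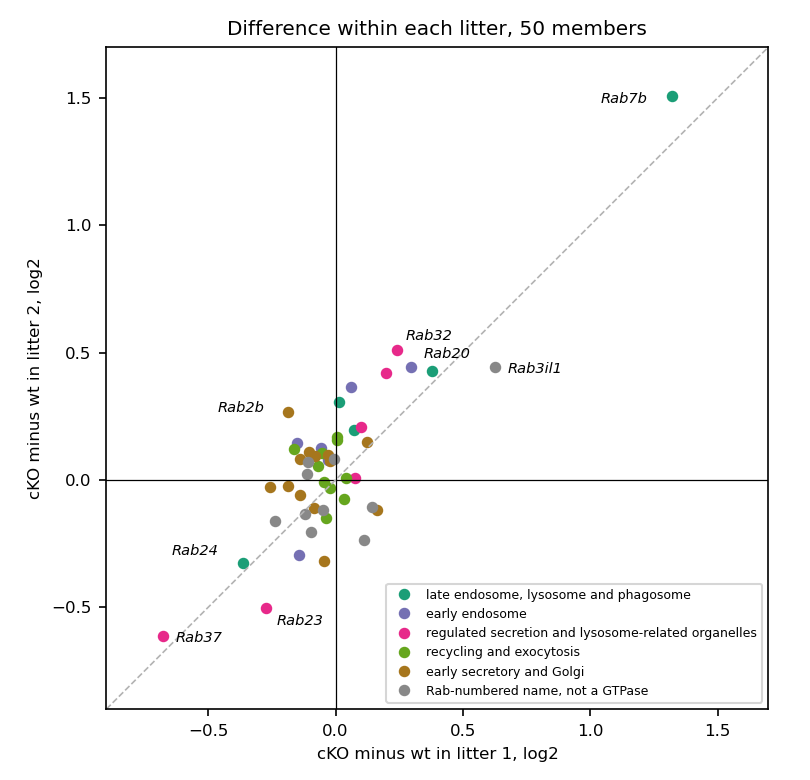
Difference (cKO minus wt, log2) of the 50 Rab-numbered genes within litter 1 (x axis) and within litter 2 (y axis), each point 1 gene, coloured by role. Rab7b lies at 1.32 and 1.51 and Rab37 at -0.68 and -0.61, and 31 of the 50 points have the same sign in both litters.

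Some Rab genes followed the litter more than the genotype. Rab30, a Golgi Rab, was at 10.52 in litter 1 and 10.10 in litter 2 for cKO, and at 10.78 in litter 1 and 10.13 in litter 2 for wt. Its difference of litter 1 minus litter 2 was 0.53 (limma, adjusted p = 0.880), and the litters also split by the sex-linked transcripts. Rab11fip3, an effector of Rab11, was at 6.52 and 6.77 in cKO DC and at 6.41 and 7.01 in wt DC, higher in litter 2 in both genotypes (litter 1 minus litter 2, -0.43). These were the 2 Rab genes of 50 with an unadjusted limma p under 0.05 between litters, where the background was 3.38% of all genes. The 2 litters were apart in 22 of the 50 Rab genes, where the background was 34.1% of all genes.

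The Rab machinery was examined next, by lists of exchange factors, GTPase-activating proteins with a TBC domain, effectors, and the factors that prenylate and chaperone Rabs. Of 137 genes listed, 109 were measured. None passed the study's thresholds. At an unadjusted limma p under 0.05 stood 15, with 2 higher and 13 lower in cKO DC (all genes, 5.37% higher and 4.92% lower). Groups were apart in 61, of which 17 were higher and 44 lower (all genes, 45.4% apart, 17.1% higher and 28.3% lower), and the median difference was -0.04 (all genes, -0.03).

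Of the 27 exchange factors 4 had an unadjusted p under 0.05, against 10.3% of all genes. Ankrd27, an exchange factor for Rab21 that also binds Rab32 and Rab38, was at 9.45 and 9.40 in cKO DC against 9.87 and 9.83 in wt DC, a difference of -0.42 ± 0.08 (SE; limma, adjusted p = 0.308). The other 3 are DENN-domain proteins, with differences of -0.32 for Dennd4b, -0.27 for Sbf1 and 0.47 for Dennd2d. Ankrd27 and Rab21 were both at lower values on both cKO arrays, as were 28.3% of all genes. Rab32 (0.38) and Rab38 (0.15) had the other sign, and a link of Ankrd27 to these Rab genes was not tested.

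Of the 33 TBC-domain proteins 5 had an unadjusted p under 0.05, against 10.3% of all genes. Tbc1d16, which in human cells acts on Rab4a, was at 7.83 and 7.82 in cKO DC against 8.35 and 8.41 in wt DC, a difference of -0.55 ± 0.08 (SE; limma, adjusted p = 0.231). It was -0.38 for Sgsm2, -0.33 for Sgsm3, -0.32 for Evi5l and 0.36 for Tbc1d2b. Sgsm2 reached the limit of 6.5 on the wt 1 array alone. It lay at 6.01 and 6.09 in cKO DC and at 6.36 on wt 2, so its difference rests on values near or under the limit. Sgsm2 was kept in the counts of TBC-domain proteins and of all machinery genes.

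Of the 40 effectors 30 lay below 0 and 10 above, where 5694 of all 9894 genes lay below 0. Groups were apart in 28, with 4 higher and 24 lower in cKO DC (28.3% of all genes were apart and lower), and the median difference was -0.11. The 6 with an unadjusted p under 0.05 (all genes, 10.3%, 4.92% lower) had lower values. They were Rilpl2, which binds Rab8 and myosin Va, at -0.50, the actin-oxidizing enzyme Mical1 at -0.38, the endosomal kinesin Kif16b at -0.32, Ehbp1l1 at -0.30, the inositol phosphatase Inpp5b at -0.28 and the recycling endosome protein Micall1 at -0.24. After adjustment over all probe sets none passed in limma, with adjusted p between 0.417 and 0.509.

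In the group of 9 prenylation and chaperone factors none had an unadjusted p under 0.05, and the range was -0.27 to 0.17. The smallest p values belonged to Yipf4, at -0.27, to the prenylated Rab acceptor gene Rabac1, at 0.17, to Rabggtb, a subunit of the enzyme that prenylates Rabs, at -0.10, and to Rabif, at 0.06. For comparison, the Arf, Arl and Sar family (15 measured of 30 listed) had a median difference of 0.04. It had 0 genes past the study's thresholds, and at an unadjusted limma p under 0.05 it had Arl11 (0.44).

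**Figure D4:**
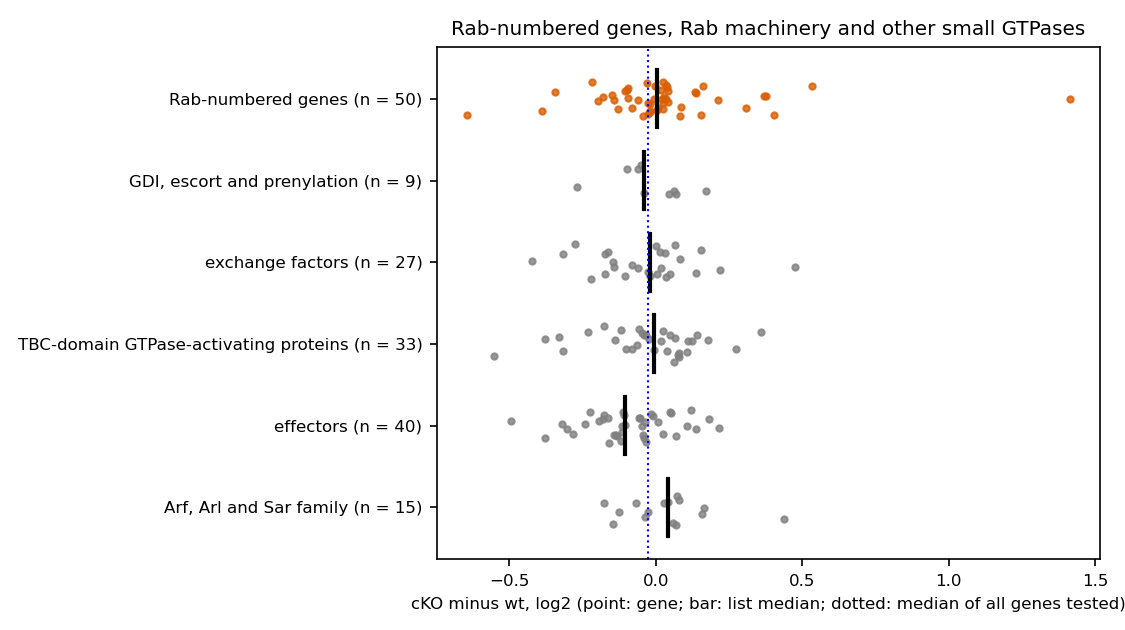
Difference (cKO minus wt, log2, x axis) of the Rab-numbered genes, the 4 Rab machinery lists and the Arf, Arl and Sar family, each point 1 gene, with a bar at each list's median and a dotted line at the median of all genes tested (-0.03). The effectors have the lowest list median (-0.11), and the Rab-numbered genes (0.00) hold the highest point, Rab7b at 1.41.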

How the data were processed

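Splenic Esam DC of 2 cKO and 2 wt mice were profiled on Affymetrix mouse exon ST 1.0 arrays, as the study's methods name them, although the probe set numbers look like those of a gene-level ST array and the files used here do not settle which it was. The authors deposited log2 RMA values with GC correction made in Partek, with mm9 given as the build in the submitters' processing notes and versions not given in the sources used here. The table holds 35399 probe sets, of which 21789 carry 1 gene symbol, 1621 several and 11989 none in the platform table. Depth does not apply to arrays, and 2 per group limit the precision. A probe set was tested if log2 was at least 6.5 on 1 or more arrays (18889), and a gene was represented by its brightest single-symbol probe set (9894 genes). Differences were fitted with limma 3.58.1 in R 4.3.3 (lmFit and eBayes, residual df 2, prior df 2.2), two-sided, with Benjamini-Hochberg adjustment, and the fit was tested on simulated data. Adjustment over genes used a separate limma fit on 1 probe set per gene. The one-way test and the 1.5-fold threshold follow the study's methods. Replicates were separate mice, and no 2 arrays shared more than 5 identical values. The labels give the litters, and arrays of the same litter deviated together (r = 0.27), so the litter was tried as a block.

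All 50 Rab-numbered genes are named with values or in a range. In the machinery lists, the genes named were the 4 or more with the smallest p per list. The 50 genes and the lists were chosen with earlier results of these data known. Promoter windows and names came from RefSeq (GRCm38.p6), in which all 50 genes matched by gene ID and 8 have no window given: Rab2a, Rab7b, Rab11fip1, Rab11fip4, Rab18, Rab30, Rab37 and Rab38. Other alternatives were a limit of 7, no limit, renewed quantile normalization, median centring, an intensity trend, and leaving out each array.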

Additional observations from a re-analysis of the deposited data

How the results depend on the processing

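Leaving out 1 array or fitting the litter block leaves the one-way test with 1 residual degree of freedom in place of 2, and 2 arrays per group bound every value here. With the litter block, probe sets past the study's thresholds numbered 135, in place of 267, against 493 with limma's unadjusted p and 112 to 280 without 1 array. Past an adjusted p of 0.05 stood 42 with 1 probe set per gene, 1 after renewed quantile normalization (Plcb4), 2 with an intensity trend (Plcb4 and an unnamed probe set) and 0 without any 1 array, in place of 0. The Rab genes past the study's thresholds were 0 to 2 without 1 array: none without cKO 1 or cKO 2, Rab7b alone without wt 1, and Rab3il1 and Rab7b without wt 2. In the paired reading, with both litters required to move the same way, 31 Rab genes were apart, in place of 20, and 30 to 41 without 1 array. The paired count of 31 of 50 was close to the background, with 6239 of all 9894 genes moving the same way in both litters. Without 1 array fewer values have to stay apart. No share of all genes was computed for the counts of 30 to 41, so they do not set the Rab genes off from genes at large. With the block Rab32 joined the 7 Rab genes at an unadjusted limma p under 0.05, and both Rab7b and Rab37 still passed the study's thresholds, with an adjusted limma p of 0.252 for Rab7b and 0.301 for Rab37.

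Rab7b stayed at 1.41 with 1 probe set per gene, where its adjusted p was 0.0345 (0.0345 to 0.877 over all alternatives), and lay between 1.34 and 1.48 without 1 array. Rab37 lay between -0.74 and -0.55 without 1 array. Signs turned for differences near 0: Rab11a (0.0021) and Rab22a (0.0129) after renewed quantile normalization, and Rab29 (-0.0061) and Rab39 (-0.0109) after median centring. Without 1 array the sign turned in 22 Rab genes, with these ranges: Rab11a -0.054 to 0.040, Rab11b -0.017 to 0.19, Rab11fip1 -0.065 to 0.025, Rab11fip3 -0.36 to 0.24, Rab11fip4 -0.11 to 0.15, Rab19 -0.20 to 0.24, Rab1b -0.17 to 0.11, Rab22a -0.11 to 0.10, Rab28 -0.079 to 0.025, Rab29 -0.058 to 0.072, Rab2b -0.21 to 0.30, Rab30 -0.47 to 0.18, Rab35 -0.10 to 0.060, Rab38 -0.028 to 0.34, Rab39 -0.11 to 0.11, Rab3d -0.022 to 0.10, Rab3gap1 -0.15 to 0.060, Rab4b -0.17 to 0.13, Rab5b -0.016 to 0.064, Rab5c -0.060 to 0.13, Rab6a -0.024 to 0.092, Rab8a -0.072 to 0.13. The cause was not tested.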

Other observations

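Of the 50 Rab-numbered genes 3 had a second tested probe set. For Rab5b both probe sets gave a difference of 0.02. For Rab11b the second gave -0.15 and the brightest 0.09, and for Rab2a the second gave 0.04 and the brightest -0.18. All of these groups overlapped between cKO and wt.

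Genes next to Rab7b and Rab37 in the RefSeq order were looked up as well. Srgap2, near Rab7b, was at 9.49 and 9.47 in cKO DC and at 9.11 and 9.10 in wt DC, a difference of 0.37 (limma, adjusted p = 0.349). Slc41a1, a magnesium transporter gene on the other side, differed by -0.15 and its neighbour Rab29 by 0.01. Ctse, directly next to Rab7b on the Srgap2 side, differed by 0.29, with overlapping groups and values between 6.09 and 6.74. Near Rab37, Cd300lf differed by -0.24, Slc9a3r1 by -0.30 and Cd300e by 0.22, with the groups of Cd300e overlapping. Nat9 differed by -0.06 with overlapping groups, and Tmem104 by 0.19 with its cKO arrays above its wt arrays. In all, 7 of the 50 genes overlap a coding gene in RefSeq, Rab37 with Cd300lf among them, and whether the probe sets tell these genes apart was not tested.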
